A study of Mus musculus with 6 samples.

Results

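Red blood cells carry on their surface the proteins that define blood groups, and inside them the carbonic anhydrases that interconvert carbon dioxide and bicarbonate. The genes described here are 9 such genes: Rhag, Rhd and Icam4 of the Rh complex, Kel and Xk of the Kell complex, Ermap, the water channel gene Aqp1, and the carbonic anhydrase genes Car1 and Car2. Their rows were found by gene symbol in the GENCODE M21 annotation, and the genes were chosen with earlier results of these data known. The values of 8 of the 9 are described, among 24906 genes listed in the table, and Icam4 is not analysed here.

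Polyadenylated RNA was sequenced from the spleens of 6 mice, all C57BL/6J, 12 to 16 months old, with 1 library per mouse. The D3TA group held 3 mice whose Ccnd3 gene, for cyclin D3, was edited by CRISPR/Cas9 so that alanine replaces threonine 283. The WT group held 3 wild-type mice of matched age. The series record says that the line is kept as heterozygotes and that at this age it shows a severe myeloproliferative neoplasm, a disease in which the marrow and spleen overproduce blood cells. It does not say which alleles the 3 mice carried. The knock-in is carried in the germline, so every cell type in the spleen bears it. The comparison asks how spleen transcripts of these mice differ from those of WT mice.

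Band 3, the anion exchanger encoded by Slc4a1, sits in the red cell membrane together with the Rh proteins and the spectrin skeleton. Cytosolic carbonic anhydrase supplies it with bicarbonate, and Rh and aquaporin channels pass gases and water. In the mouse, the red pulp of the spleen makes red cells as well as clearing old ones, and the genes for these proteins are switched on at successive stages as erythroblasts mature. GATA1, which binds sites with the core GATA, is the main transcription factor of that programme.

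Values per mouse are given in the order 1, 2, 3 within each group. The libraries held 14944622 to 19456838 reads assigned to genes. Hemoglobin transcripts took 6.39%, 6.75% and 1.91% of reads in D3TA-1, D3TA-2 and D3TA-3, and 1.63%, 1.40% and 6.57% in WT-1, WT-2 and WT-3. Y-linked reads marked D3TA-3 and WT-1, with Ddx3y at 1116 and 1162 normalized counts, whereas Xist was at 1195 to 10384 in the other 4. WT-2 stood apart, with 8449 genes at 0 reads against 3193 to 5170 in the other 5 libraries. Markers of the spleen's main lymphocytes were present, with the 10 B cell markers summing to 13414, 41034 and 33183 in the D3TA mice, against 84293, 79267 and 67097 in the WT mice. Read counts do not show the edited codon, so they give no check of genotype.

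Promoter sequences, 250 bases before to 50 bases after the start of each gene, were at hand from RefSeq (GRCm38.p6) for 7 of the 9 genes, that is, all but Car1 and Car2. The letters AGATAA or TGATAA, on either strand, were present in 5 of the 7, those of Rhag, Rhd, Kel, Ermap and Icam4, and in 18.6% of all 32851 promoters of the same length. They were not found in the windows of Xk and Aqp1. The letters CCNCNCCC, on either strand, were in 4 of the 7 (Rhd, Icam4, Xk and Aqp1), against 49.5% of all promoters. The promoters below belong to the 4 measured genes in which these GATA letters were found, where Car1 and Car2 could not be searched. Any link between the letters and the levels of the genes was not tested. They are written 5′ to 3′ in the direction of the gene, and the capitals mark AGATAA or TGATAA or their reverse complements. A match is a description of the letters, not evidence of a bound site.
Rhag, chr17:40810899-40811198, plus strand: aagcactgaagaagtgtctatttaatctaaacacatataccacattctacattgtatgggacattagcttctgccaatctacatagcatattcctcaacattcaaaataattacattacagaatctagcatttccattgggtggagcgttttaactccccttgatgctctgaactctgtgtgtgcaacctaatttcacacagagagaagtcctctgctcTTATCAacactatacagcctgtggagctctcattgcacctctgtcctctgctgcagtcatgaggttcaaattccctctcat
Rhd, chr4:134864286-134864585, plus strand: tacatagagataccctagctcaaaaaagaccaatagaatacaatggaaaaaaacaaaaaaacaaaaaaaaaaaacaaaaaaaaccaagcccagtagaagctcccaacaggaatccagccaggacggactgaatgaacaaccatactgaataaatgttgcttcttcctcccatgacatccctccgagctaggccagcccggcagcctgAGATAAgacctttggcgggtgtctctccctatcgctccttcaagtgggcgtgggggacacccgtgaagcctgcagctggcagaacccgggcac
Kel, chr6:41704276-41704575, minus strand: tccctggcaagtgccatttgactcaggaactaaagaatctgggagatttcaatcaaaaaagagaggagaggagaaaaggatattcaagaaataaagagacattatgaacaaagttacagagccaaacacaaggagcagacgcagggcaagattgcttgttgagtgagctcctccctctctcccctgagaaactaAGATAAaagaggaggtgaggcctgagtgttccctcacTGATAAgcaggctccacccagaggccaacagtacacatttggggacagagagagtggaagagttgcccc
Ermap, chr4:119189946-119190245, minus strand: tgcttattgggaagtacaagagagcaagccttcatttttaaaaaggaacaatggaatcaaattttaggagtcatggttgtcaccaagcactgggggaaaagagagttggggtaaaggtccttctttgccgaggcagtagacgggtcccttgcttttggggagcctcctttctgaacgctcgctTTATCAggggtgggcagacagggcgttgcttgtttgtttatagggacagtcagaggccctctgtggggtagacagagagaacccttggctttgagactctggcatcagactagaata
The marked letters begin 31 bases before the annotated start in Rhag, 43 bases before it in Rhd, 67 bases before it in Ermap, and 56 and 19 bases before it in Kel, the promoter with a pair of matches.

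In D3TA spleens, transcripts of the blood group genes, the water channel and Car2 had a higher mean log2 level than in WT spleens, by 0.62 for Xk to 1.92 for Kel, whereas Car1 had a lower one (-0.28). None of these differences passed the limma test given further on. The higher values came from 2 of the 3 D3TA mice. D3TA-1 was the highest of the 6 libraries for all 8 genes, which was so for 26.9% of the 15564 genes tested. D3TA-2 was above every WT library for 7 of the 8, the exception being Car1, and the share of all genes in that position was not computed. D3TA-3 was the lowest of the 6 libraries for 5 of the 8 (Kel, Ermap, Aqp1, Car1 and Car2), which was so for 11.0% of all genes tested. For none of the 8 genes did the 3 D3TA values stand clear of the 3 WT values on either side, while 8.18% of all genes had every D3TA value above and 6.84% every D3TA value below the WT values. In bulk RNA, a larger number of red cell precursors and more of a transcript in each of them cannot be told apart.

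**Figure D1:**
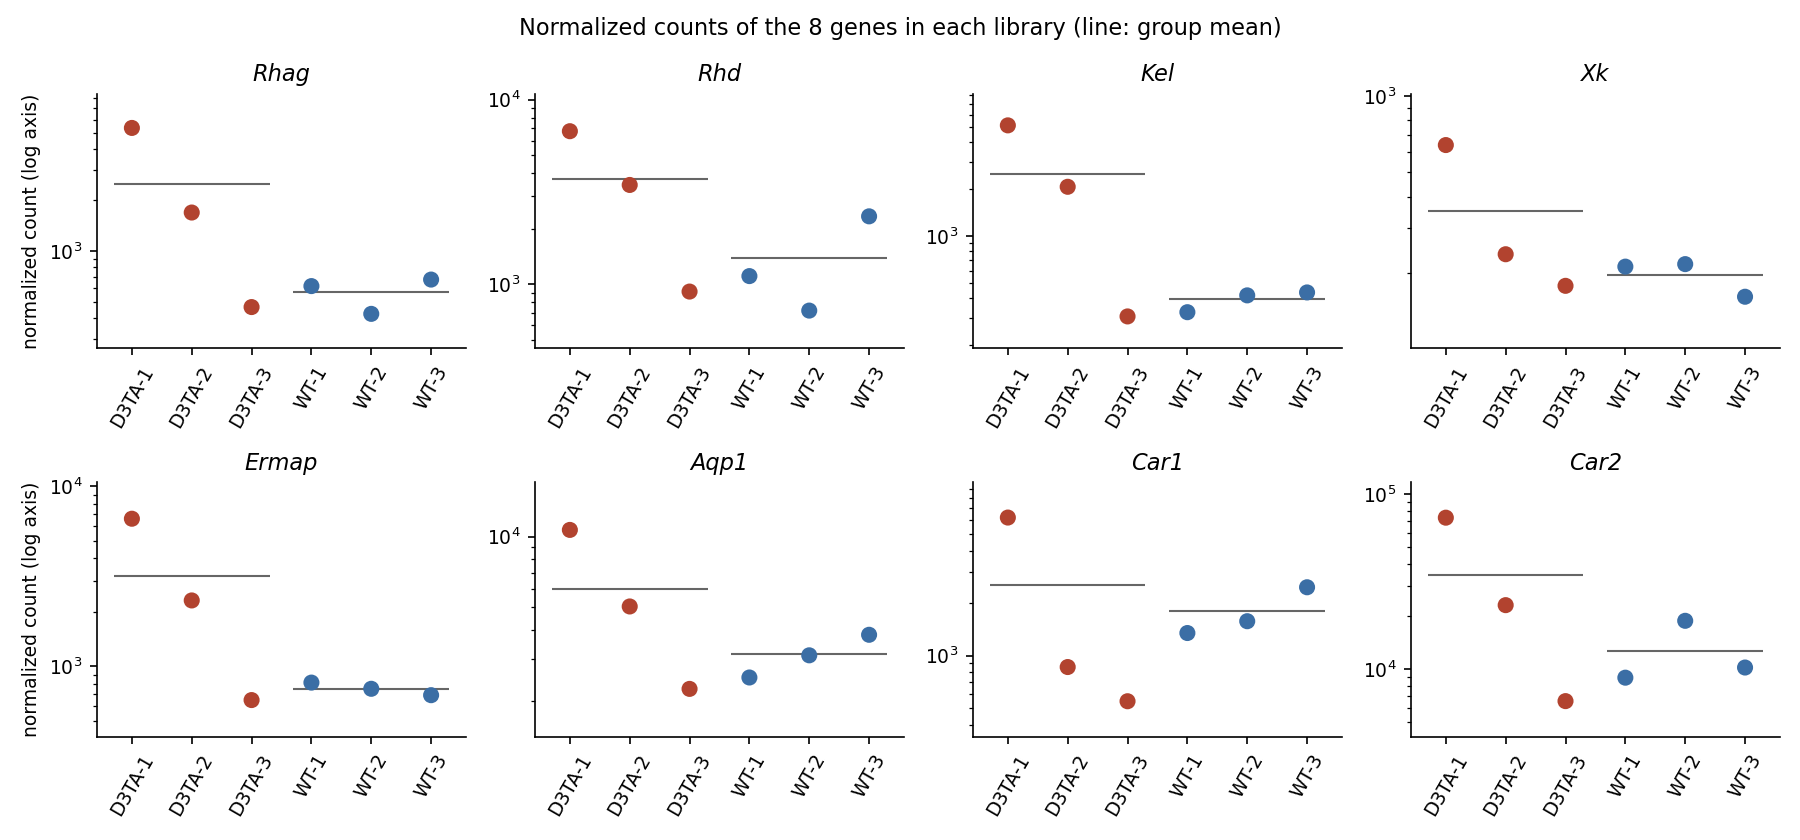
Normalized counts (log axis) of the 8 genes in the 3 D3TA libraries (red) and the 3 WT libraries (blue), with a line at each group mean. D3TA-1 is the highest library in every panel, and D3TA-3 lies among or below the WT libraries.

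Each difference is the D3TA mean minus the WT mean of log2(normalized count + 1), with the moderated standard error (SE) of limma and its Benjamini-Hochberg adjusted p over all genes. By that test 0 of the 8 genes passed an adjusted p of 0.05, as did 0.00% of all genes tested, and the smallest adjusted p of any gene was 0.0945. At an unadjusted p under 0.05 there were 2 of the 8 (Kel and Ermap), against 9.91% of all genes. edgeR's quasi-likelihood test on recovered reads also passed 0 of the 8 and 0.00% of all genes, with 10.4% of all genes at an unadjusted p under 0.05. DESeq2 on the same reads passed 3 of the 8 as higher in D3TA, namely Rhag, Kel and Ermap, beside 1.83% of the 18588 genes to which it gave an adjusted p. The median difference of the 8 genes was 1.04, and 7 of them lay above 0, where the median of all genes tested was 0.06 and 54.5% lay above 0. Without D3TA-1 the median of the 8 was 0.32. Without D3TA-3, limma passed 3 of the 8 as higher, again Rhag, Kel and Ermap, beside 1.59% of all genes.

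The Rh complex comprises RhAG, a channel for ammonia and carbon dioxide that Rh proteins need to reach the membrane, and the Rh protein itself, which in mice comes from the single gene Rhd. Rhag (ENSMUSG00000023926, chromosome 17, 40811126 to 40840754, GRCm38) was at 5352, 1687 and 464 normalized counts in the D3TA mice, against 618, 423 and 676 in the WT mice. D3TA-1 and D3TA-2 lay above all WT libraries and D3TA-3 lay among them. Its log2 difference was 1.52 ± 0.69 (SE, n = 3 each), a 2.87-fold higher level, with a limma adjusted p of 0.510 and a DESeq2 adjusted p of 0.0254, and it was 0.66 without D3TA-1. Rhd (ENSMUSG00000028825, chromosome 4, 134864536 to 134896172) was at 6746, 3451 and 914 in the D3TA mice, against 1108, 721 and 2334 in the WT mice. WT-3 was well above the other WT libraries here, and the WT range of 3.24-fold was the widest of the 8 genes. The log2 difference of Rhd was 1.17 ± 0.66 (SE, n = 3 each), with a limma adjusted p of 0.604 and a DESeq2 adjusted p of 0.217. That difference was 0.53 without D3TA-1, 0.78 without WT-2, the lowest library for Rhd, and 0.14 without both.

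Kell is a membrane metalloprotease that cleaves big endothelins and is bound, in human red cells, by a disulfide bridge to XK, a lipid scramblase whose loss causes McLeod syndrome. Kel (ENSMUSG00000029866, chromosome 6, 41686330 to 41704339) had the highest difference of the 8 genes. It was at 5123, 2071 and 306 in the D3TA mice, against 326, 417 and 436 in the WT mice, so that D3TA-1 and D3TA-2 stood far above a narrow WT range and D3TA-3 lay just under it. The log2 difference of Kel was 1.92 ± 0.79 (SE, n = 3 each), 3.79-fold, with a limma adjusted p of 0.456 and a DESeq2 adjusted p of 0.00299. Without D3TA-1 it was 1.03. Xk (ENSMUSG00000015342, chromosome X, 9272756 to 9313250) differed less. It was at 639, 236 and 177 in the D3TA mice, against 211, 216 and 160 in the WT mice, with D3TA-1 far above the other libraries and D3TA-2 just above the WT range. Its log2 difference was 0.62 ± 0.47 (SE, n = 3 each; limma adjusted p 0.701, DESeq2 adjusted p 0.532) and 0.08 without D3TA-1. Per kilobase of exon, the ratio of Kel to Xk was 14.7, 16.0 and 3.16 in the D3TA mice, against 2.82, 3.54 and 4.97 in the WT mice. D3TA-1 and D3TA-2 thus lay above all WT ratios and D3TA-3 among them (exact permutation test, 2-sided, p = 0.3 and 0.45 adjusted over the 3 ratios tested, where 0.1 is the smallest p that 3 against 3 allows).

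Ermap (ENSMUSG00000028644, chromosome 4, 119175457 to 119190011) encodes an erythroid membrane protein of the immunoglobulin superfamily that carries the Scianna antigens in humans. It was at 6619, 2326 and 650 in the D3TA mice, against 813, 751 and 692 in the WT mice. The WT libraries differed from one another by at most 1.17-fold, the narrowest range of the 8 genes, while D3TA-1 exceeded D3TA-3 by 10.2-fold. The log2 difference of Ermap was 1.52 ± 0.65 (SE, n = 3 each), with a limma adjusted p of 0.481 and a DESeq2 adjusted p of 0.0203. Without D3TA-1 it was 0.71.

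Aquaporin 1 is the water channel that carries the Colton antigens in humans, and vascular endothelium makes it too. Aqp1 (ENSMUSG00000004655, chromosome 6, 55336432 to 55348555) was at 10670, 5035 and 2243 in the D3TA mice, against 2508, 3118 and 3814 in the WT mice. The order of its libraries was that of Kel, with D3TA-1 and D3TA-2 above all WT libraries and D3TA-3 below them. The log2 difference was 0.67 ± 0.49 (SE, n = 3 each; limma adjusted p 0.692, DESeq2 adjusted p 0.426), and 0.12 without D3TA-1. Of 12 endothelial markers 6 lay above 0, with a median difference of -0.07, which was -0.23 without D3TA-1, and their summed level was 6379 to 8258 in D3TA and 7509 to 9305 in WT. None of the 12 was at 0 in any library. The part of endothelial cells in the level of Aqp1 was not tested.

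Car1 and Car2 lie on chromosome 3, with 77904 bases between them that hold another carbonic anhydrase gene, Car3, and on opposite strands. Their values differed in which libraries were high. Car2 encodes the fast cytosolic isozyme of red cells, which many other tissues also make. Car2 (ENSMUSG00000027562, 14886273 to 14900770) was at 73492, 23224 and 6561 in the D3TA mice, against 8933, 18895 and 10211 in the WT mice. The log2 difference of Car2 was 0.90 ± 0.71 (SE, n = 3 each; limma adjusted p 0.711, DESeq2 adjusted p 0.238), and 0.04 without D3TA-1. Car1 encodes a slower isozyme that is abundant in mature red cells. Car1 (ENSMUSG00000027556, 14766216 to 14808368) was at 6193, 859 and 546 in the D3TA mice, against 1346, 1574 and 2465 in the WT mice. D3TA-2 and D3TA-3 were both below every WT library and D3TA-1 was above all of them. Its log2 difference was -0.28 ± 0.73 (SE, n = 3 each; limma adjusted p 0.922), but the mean count was 2533 ± 3174 in D3TA mice, against 1795 ± 591 in WT mice (SD, n = 3 each), so the direction depends on the scale. DESeq2 put it at 0.50 and gave no adjusted p, and edgeR put it at 0.47. Without D3TA-1 the log2 difference of Car1 was -1.34. Per kilobase of exon, Car2 exceeded Car1 by 6.11, 13.9 and 6.19 times in the D3TA mice, against 3.42, 6.19 and 2.13 times in the WT mice, where D3TA-3 and WT-2 were alike (exact permutation test, 2-sided, p = 0.2 and 0.45 adjusted over the 3 ratios tested).

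**Figure D2:**
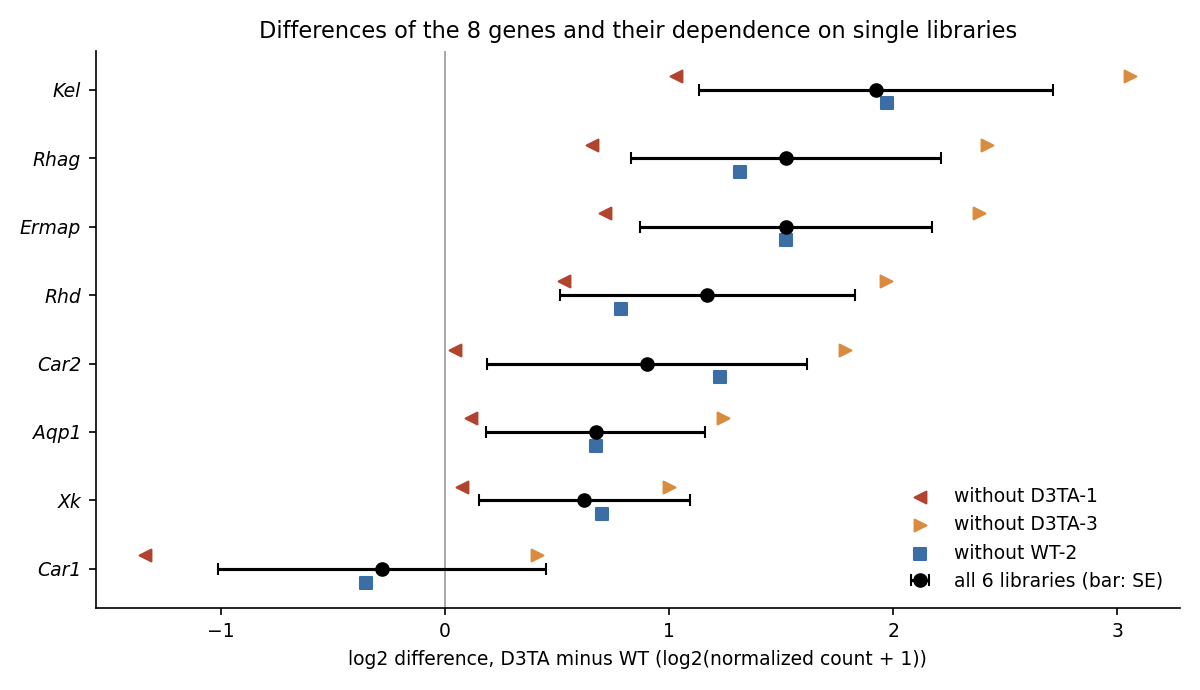
Log2 difference, D3TA minus WT, of the 8 genes with its SE (black), and the same without D3TA-1, without D3TA-3 and without WT-2. Leaving out D3TA-1 lowers every difference, and Car1 is the gene below 0 with all 6 libraries.

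Per kilobase of exon, Car2 had the highest level of the 8 genes and Xk the lowest in all 6 libraries. In WT, the mean levels per kilobase were 5235 for Car2, 1438 for Car1, 1198 for Aqp1, 871 for Rhd, 245 for Rhag, 142 for Ermap, 142 for Kel and 38.6 for Xk. The ranges of Car1, Aqp1 and Rhd overlapped, as did those of Ermap and Kel, while the other neighbours in that order did not overlap. In D3TA, the means per kilobase were 14214 for Car2, 2323 for Rhd, 2277 for Aqp1, 2029 for Car1, 1069 for Rhag, 901 for Kel, 604 for Ermap and 69.1 for Xk, and every pair of neighbours in that order overlapped. Within libraries, Car1 ranked 2, 6 and 4 among the 8 genes in D3TA-1, D3TA-2 and D3TA-3, and 2 in each WT library.

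The 8 genes were also set against other transcripts of red cell precursors in the same library. The yardstick, chosen after the values were seen, was the mean log2 level of 11 late erythroid genes without hemoglobin, among them Alas2, Slc4a1, Epb42, Bpgm and Fech. It stood at 12.8, 11.5 and 9.85 in the D3TA mice, against 10.4, 9.92 and 11.0 in the WT mice. Against it, Car1 was lower in every D3TA library than in any WT library, at -0.18, -1.75 and -0.76 in the D3TA mice, against -0.0050, 0.70 and 0.28 in the WT mice. The difference was -1.22 on the log2 scale, a 2.33-fold lower relative level, and 2.70% of all genes tested had every D3TA value below the WT values on this scale. Rhag was higher in every D3TA library, at -0.39, -0.78 and -0.99 in the D3TA mice, against -1.13, -1.19 and -1.59 in the WT mice, a difference of 0.58, and 1.14% of all genes had every D3TA value above. The other 6 genes overlapped on this yardstick, with differences between -0.32 for Xk and 0.98 for Kel.

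A second yardstick of 12 early erythroid genes, among them Gata1, Klf1, Tal1 and Epor, gave Car1 as lower in every D3TA library again. The values were 1.08, -0.19 and 0.43 in the D3TA mice, against 1.67, 1.56 and 2.13 in the WT mice, a difference of -1.34, with 8.20% of all genes in that position and 0.816% in the opposite one, every D3TA value above. Aqp1 was lower in every D3TA library on the early yardstick too, with a difference of -0.39, whereas Rhag overlapped (0.46). Over the 16 relative levels the exact permutation test (2-sided) gave p = 0.1 for Car1 on both yardsticks, for Rhag on the late one and for Aqp1 on the early one, which is the smallest p that 3 against 3 allows, and an adjusted p of 0.4 for each. None passed.

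**Figure D3:**
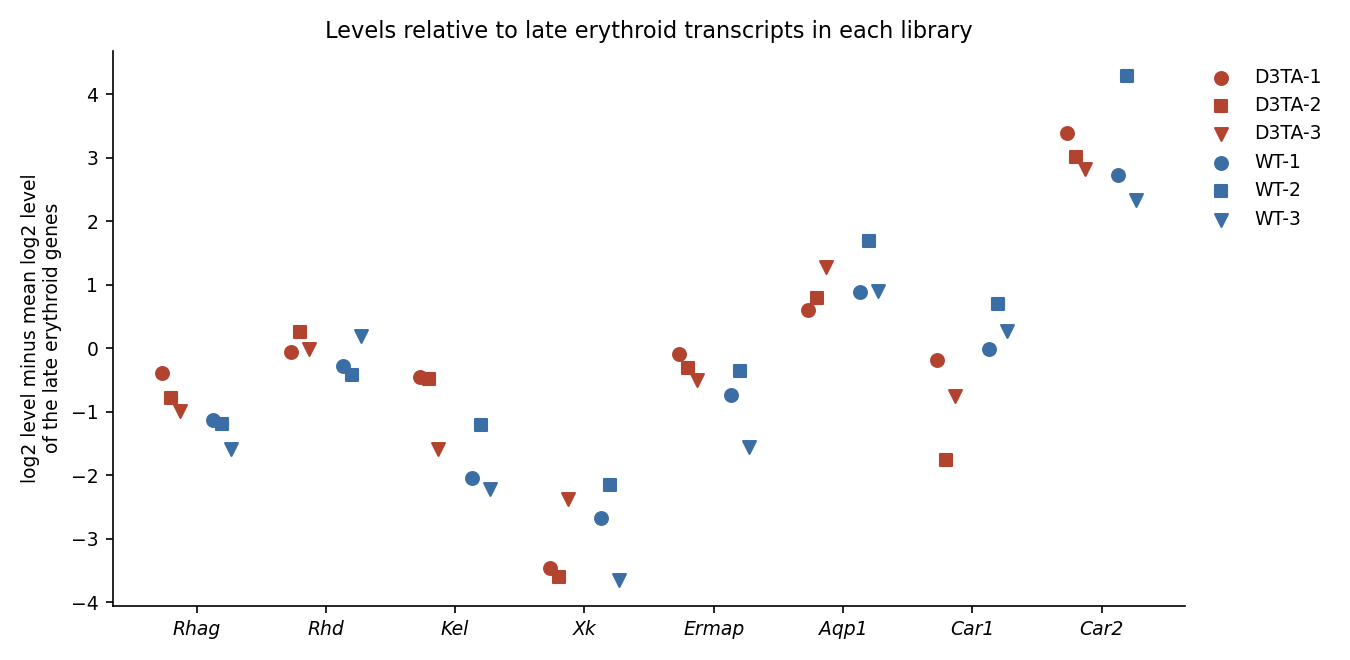
Log2 level of each of the 8 genes minus the mean log2 level of 11 late erythroid genes, in the 3 D3TA libraries (red, left of each pair) and the 3 WT libraries (blue, right). Car1 lies lower in all 3 D3TA libraries and Rhag higher, while the other 6 genes overlap.

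Hemoglobin reads did not order the libraries as these genes did. D3TA-2 and WT-3 had nearly the same hemoglobin share, yet Kel was at 2071 in D3TA-2 and 436 in WT-3, Ermap at 2326 in D3TA-2 and 692 in WT-3, and Rhag at 1687 in D3TA-2 and 676 in WT-3. Car2 was at 23224 in D3TA-2 and 10211 in WT-3, and Rhd at 3451 in D3TA-2 and 2334 in WT-3. Aqp1 was at 5035 in D3TA-2 and 3814 in WT-3, and Xk at 236 in D3TA-2 and 160 in WT-3. Car1 ran the other way between this pair, at 859 in D3TA-2 and 2465 in WT-3. These are values of single libraries, with no test.

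The libraries were also compared within those with and without Y-linked reads. Between D3TA-1 with D3TA-2 and WT-2 with WT-3, which had none or few, the log2 difference was 2.93 for Kel, 2.49 for Rhag, 2.44 for Ermap, 1.89 for Rhd, 1.57 for Car2, 1.09 for Aqp1, 1.06 for Xk and 0.23 for Car1. Between D3TA-3 and WT-1, which carried them, all 8 genes were lower in D3TA-3, with log2 differences of -0.09 for Kel, -0.16 for Aqp1, -0.25 for Xk, -0.28 for Rhd, -0.32 for Ermap, -0.41 for Rhag, -0.45 for Car2 and -1.30 for Car1. In 7 of the 8 genes, all but Car1, both D3TA libraries without Y-linked reads were above both such WT libraries while D3TA-3 was below WT-1, and so they were in 10% of all genes tested. The difference between these 2 sets rests on 1 library per group among those with Y-linked reads. A term for it in limma, an interaction of genotype with Y-linked reads, had an adjusted p of 0.9999 for each of the 8 genes.

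Across the 6 libraries, likeness was measured as the root mean square distance between log2 profiles, each centred on its own mean. Rhag and Ermap were the closest pair of the 8, at 0.24. Car1 was farthest from the mean profile of the 8 genes, at 0.77, and the other 7 were at 0.31 to 0.59. Outside the 8, the nearest genes to that mean profile were Bcl2l1 (0.13), the survival gene that encodes BCL-XL, Tal1 (0.16), a transcription factor of erythroid and other blood cells, the amino acid transporter gene Slc16a10 (0.16), the F-box protein gene Fbxo30 (0.17) and Pigq (0.18), which acts in the making of membrane anchors. Tal1 was at 7213, 2094 and 666 in the D3TA mice, against 830, 827 and 1165 in the WT mice. Bcl2l1 was at 7208, 2707 and 925 in the D3TA mice, against 1226, 1172 and 1826 in the WT mice. All 5 showed the same order of D3TA libraries as the 8 genes, with D3TA-1 highest, which follows from their choice by nearest profile.

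Other members of the red cell membrane complexes were set beside the Rh and Kell genes. All 10 listed partners of the Rh and band 3 complex were tested and lay above 0, with a median difference of 1.35, where the median of all genes was 0.06, and 0 passed limma. Without D3TA-1 the median of the 10 was 0.54, and Add2, the gene of beta adducin, was at -0.02. Sptb, the beta spectrin of red cells, was at 8831, 2357 and 739 in the D3TA mice, against 1130, 657 and 408 in the WT mice. Its log2 difference was 1.89 ± 0.74 (SE, n = 3 each; limma adjusted p 0.433), and 0.97 without D3TA-1. Epb41 encodes protein 4.1R, which ties spectrin to the membrane. Its log2 difference was 1.26 ± 0.51 (SE, n = 3 each; limma adjusted p 0.452, DESeq2 adjusted p 0.109), and 0.66 without D3TA-1. DESeq2 passed 4 of the 10 as higher, among them Slc4a1, Sptb and Dmtn. The band 3 gene Slc4a1 had a mean of 20819 ± 20491 in D3TA mice, against 5012 ± 1079 in WT mice (SD, n = 3 each).

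Carriers of other blood group antigens split. Of 30 listed genes 29 were tested, 19 lay above 0 and 10 below, with a median of 0.38, which was 0.04 without D3TA-1, and 0 passed limma. The 2 with the smallest p were lower in D3TA. Cd55, which encodes decay accelerating factor, a complement regulator on many blood cells, was at 679, 920 and 683 in the D3TA mice, against 1829, 1494 and 3411 in the WT mice, with no overlap. The log2 difference of Cd55 was -1.48 ± 0.35 (SE, n = 3 each), with a limma adjusted p of 0.226 and a DESeq2 adjusted p of 0.00945. DESeq2 passed 0.705% of genes as lower in D3TA. Aqp3, a channel for water and glycerol, was at 13.9, 10.1 and 14.7 in the D3TA mice, against 55.4, 44.8 and 41.6 in the WT mice. Its log2 difference was -1.80 ± 0.64 (SE, n = 3 each; limma adjusted p 0.402, DESeq2 adjusted p 0.129). B cell markers also lay below 0, in 10 of 10 cases with a median of -1.46, which was -0.82 without D3TA-1, and their part in the levels of both genes was not tested.

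Relatives of the 8 genes lay on both sides of 0. Of 14 other carbonic anhydrase genes 7 were tested, 4 above 0 and 3 below, with a median of 0.04, which was 0.47 without D3TA-1, and 0 passed limma. Car13, which lies in the same stretch of chromosome 3 as Car1 and Car2, was at 104, 169 and 386 in the D3TA mice, against 109, 137 and 103 in the WT mice, with D3TA-3 highest and a log2 difference of 0.71 that was 0.20 without D3TA-3. Car7 was low, at 24.6, 6.06 and 14.7 in the D3TA mice, against 23.9, 117.5 and 26.1 in the WT mice. WT-2 alone was high, and the log2 difference of Car7 was -1.60 with it and -0.87 without it. Of 10 other aquaporin genes 3 were tested. Among them Aqp9, which encodes a glycerol channel of liver and neutrophils, was at 627, 387 and 225 in the D3TA mice, against 129, 153 and 169 in the WT mice, with no overlap. The log2 difference of Aqp9 was 1.34 ± 0.41 (SE, n = 3 each), with a limma adjusted p of 0.339 and a DESeq2 adjusted p of 0.0494. The 10 neutrophil markers were all higher without overlap, summing to 437886, 423826 and 80439 in the D3TA mice, against 12034, 12700 and 27954 in the WT mice, and their part in the level of Aqp9 was not tested.

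Among 17 relatives from the Rh, Kell, XK and ICAM families, 10 were tested, 5 above 0 and 5 below, with a median of 0.35, which was 0.06 without D3TA-1, and 0 passing limma. Ecel1, a relative of Kel of the endothelin-converting enzyme family, was at 24.6, 168 and 101 in the D3TA mice, against 22.0, 0 and 0.966 in the WT mice, where 3 reads, the limit that a count of 0 allows, correspond to 3.36 normalized counts in WT-2. Its limma adjusted p was 0.290 and its DESeq2 adjusted p was 0.328. Icam2, an adhesion molecule of endothelium and leukocytes, was at 486 ± 85.6 in D3TA mice, against 925 ± 183 in WT mice (SD, n = 3 each; limma adjusted p 0.356, DESeq2 adjusted p 0.174).

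**Figure D4:**
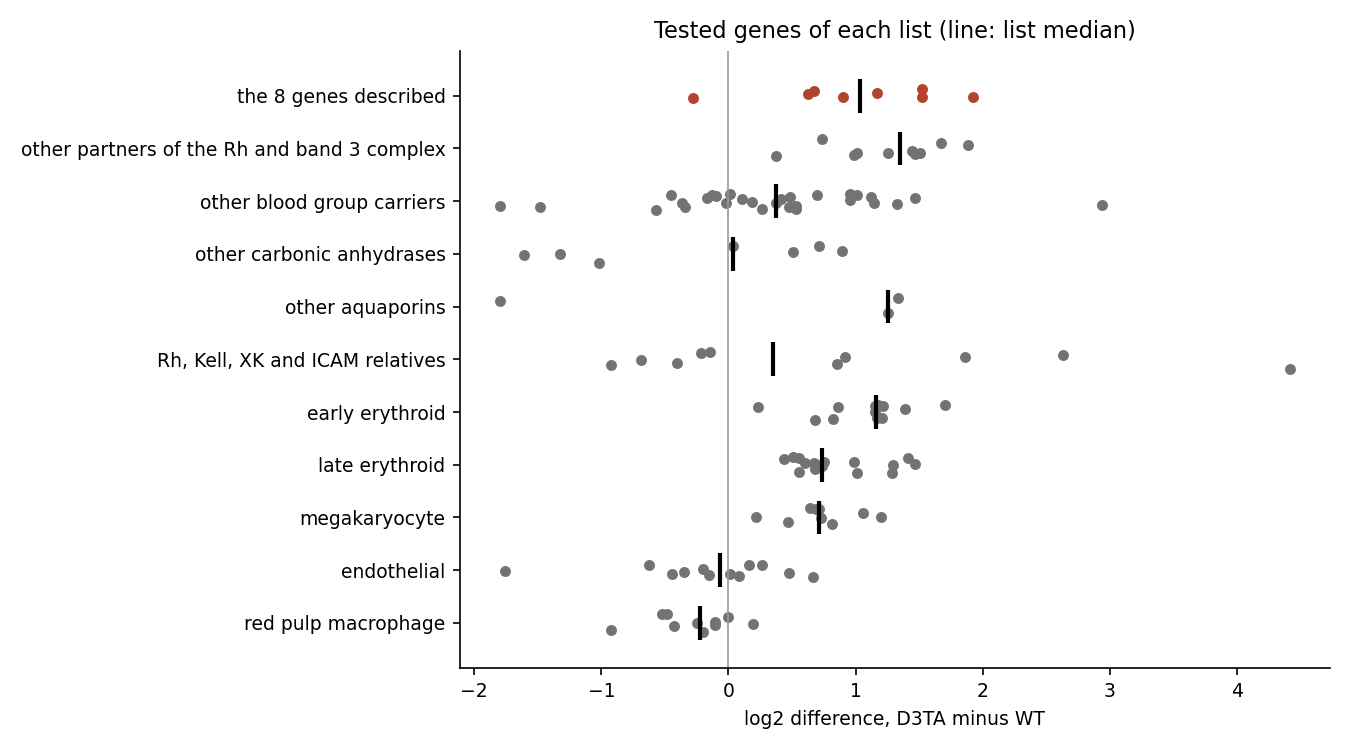
Log2 difference, D3TA minus WT, of every tested gene (points) of each list, with the list median (line). The 8 genes described (red), the partners of the Rh and band 3 complex and the erythroid lists lie mostly or wholly above 0, and the other carbonic anhydrases and the family relatives lie on both sides.

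Markers of cell types in the spleen were read in the same fit. All 12 early erythroid markers lay above 0, with a median of 1.16, which was 0.37 without D3TA-1, and summed to 8048 to 63514 in D3TA and to 8537 to 12915 in WT. All 15 tested late erythroid markers lay above 0, with a median of 0.73, which was 0.36 without D3TA-1. They summed to 307417 to 1196510 in D3TA and to 250828 to 1272630 in WT, with WT-3 the highest of the 6 libraries. Without hemoglobin the sums were 19405 to 132809 in D3TA and 16751 to 37509 in WT. All 9 tested megakaryocyte markers lay above 0 as well, with a median of 0.71, which was 0.43 without D3TA-1, and summed to 4864 to 10820 in D3TA and to 3930 to 5608 in WT. Red pulp macrophage markers lay above 0 in 1 of 10 cases, with a median of -0.23, which was 0.12 without D3TA-1, and summed to 16786 to 27154 in D3TA and to 25640 to 49519 in WT. No marker of these 4 lists was at 0 in any library, and their part in the levels of the 8 genes was not tested.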

How the data were processed

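Values were read from the 1 deposited table, in which the columns were matched to the 6 libraries by the library names in the labels. The deposited signal is not raw counts: within 0.001 reads, 100% of its 149436 values were whole multiples of a step that differed between libraries (0.864 to 1.12), so each library had been scaled by 1 factor. Dividing by the step gave reads. Per the submitters' processing notes, CASAVA, FastQC, Trim Galore, HISAT2, DESeq2 and the build mm10 were used, while the counter and the gene models it used are not given in the sources used here. The labels describe no strand-marking step, so reads of overlapping genes cannot be told apart: Kel, Xk and Car1 overlap small genes with at most 19.3 normalized counts where listed. The limit given for a count of 0 covers counting error only, whereas the SE and SD values include the spread between mice.

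The 15564 genes that reached 10 normalized counts in 3 or more libraries were fitted as log2(value + 1) in limma 3.58.1 (trend, robust) under R 4.3.3, with genotype as the factor, and adjusted by Benjamini-Hochberg over all genes at 0.05, 2-sided. The added 1 gives smaller differences of weakly expressed genes than a smaller added value would. Where a library is at 0, the difference can still be larger than that of the count models. Abcb6 was at 2.94 in limma, 2.48 in edgeR and 2.52 in DESeq2. The 8 genes had at least 166 reads in each library. The labels name separate mice, and p-values measure the spread between them. edgeR 4.0.16 and DESeq2 1.42.0 on reads, limma-voom, other scalings, filters, pseudocounts, leaving out libraries, a replicate block and a term for Y-linked reads were alternatives. Replicate numbers did not pair the mice: same-numbered libraries deviated with correlations of -0.06, -0.005 and -0.13. The genes and lists were chosen with earlier results of these data known. Named beside the 8 genes were the 2 genes of each other list with the smallest limma p and the 5 genes with the nearest profile. Other genes were named after their values were seen, and some genes of the lists are not reported here by name. Exon lengths, symbols and coordinates are from GENCODE M21 (GRCm38, which is mm10).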

Additional observations from a re-analysis of the deposited data

Results flagged for a closer look

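For 7 of the 8 genes, all but Car1, the D3TA libraries without Y-linked reads (D3TA-1 and D3TA-2) were both above the WT libraries without them (WT-2 and WT-3), while D3TA-3 was below WT-1, the libraries with them. The same was seen in 1563 of the 15564 genes tested. The D3TA minus WT difference in libraries with Y-linked reads minus that in the others was -3.02 for Kel, -2.90 for Rhag, -2.77 for Ermap, -2.17 for Rhd, -2.02 for Car2, -1.31 for Xk and -1.25 for Aqp1 on the log2 scale. As a limma interaction term it passed for 0 of the 7 (adjusted p 0.9999 each) and for 0.00% of all genes. Among libraries with Y-linked reads it rests on D3TA-3 and WT-1 alone, 1 mouse per group, so sex and differences between single mice cannot be told apart.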

How the results depend on the processing

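Under the alternatives run, the log2 differences of Rhag, Rhd, Kel, Xk, Ermap, Aqp1 and Car2 stayed above 0, and of 160 values for the 8 genes 150 kept direction and side of the threshold, 6 passed it anew and 4, all for Car1, reversed. Not all 160 were free to change direction. The changed filters, the replicate block and the term for Y-linked reads leave each difference as it was, with Kel at 1.92 in each. A scaling by DESeq2's size factors repeated the deposited scaling and left the adjusted p unchanged too. Car1 was at 0.47 in edgeR and 0.50 in DESeq2, and its range with single libraries left out was -1.34 to 0.41, above 0 without D3TA-2 (0.09) or D3TA-3, and it was -1.41 without D3TA-1 and WT-2 together. DESeq2 passed 472 genes and 3 of the 8, no filter on low values passed 44 genes and 0 of the 8, and the term for Y-linked reads 15 genes and 0 of the 8. With single libraries left out, limma passed 0 to 306 genes and 0 to 3 of the 8, the highest counts coming without D3TA-3, and the median of the 8 ranged from 0.32 without D3TA-1 to 1.88 without D3TA-3. The median was 0.26 when D3TA-1 and WT-2 were both left out. The causes were not tested. With the replicate number as a block, limma passed 0 genes and 0 of the 8, with the median at 1.04, so the block changed no call. Relative to late erythroid genes, the difference of Car1 was -1.58 to -0.79 with single libraries left out and that of Rhag 0.42 to 0.72, whereas Xk ranged from -0.73 to 0.017 and Car2 from -0.43 to 0.55. The 14 other genes recomputed under these alternatives, those named by rule, kept their direction in all 278 values. These too include values that could not change, from the filters, the block, the Y-linked term and the repeated scaling. Each of the 8 genes had at least 166 reads per library.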

Other observations

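Car3, a carbonic anhydrase gene named after its values were seen, was at 28.9, 9.09 and 52.7 in the D3TA mice, against 12.4, 1087 and 16.4 in the WT mice, so that WT-2, the library with the most genes at 0, alone held it in quantity. Its log2 difference was -1.32, and 0.73 without WT-2. Abcb6, a porphyrin transporter gene and carrier of the Lan antigen in humans, was at 64.3, 45.5 and 19.0 in the D3TA mice, against 7.64, 0 and 14.5 in the WT mice, with no overlap and a limma adjusted p of 0.427. Its DESeq2 adjusted p was 0.157, and its log2 difference was 2.94, or 1.76 without WT-2.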
